A study of Mus musculus with 24 samples.

Results

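Short ESC NADs kept in NPCs are stretches of the mouse genome that were called as nucleolus-associated domains (NADs) in embryonic stem cells (ESCs), span less than 200 kb there, and overlap a NAD of neural progenitor cells (NPCs) by at least 1 base. On chromosomes 1 to 19 of the GRCm38 genome, 384 of 745 short ESC NADs met this rule. The ESC list holds 1706 NADs on those chromosomes and 1769 with the X chromosome, and the NPC list holds 1447. The nucleolus is the membraneless nuclear body in which ribosomes are built, and the chromatin that touches it is mostly repressed and poor in active genes. In DamID, a bacterial adenine methyltransferase is fused to a protein of interest and marks the adenine of GATC sites that come near it, and DpnI then cuts those marked sites so that they can be sequenced.

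The series has 24 samples, of which the NAD lists used 2 for each of H2B-Dam and H2B-Dam-NoLS in ESCs and 2 for each in NPCs, and RNAseq used 3 ESC and 3 NPC samples. H2B-Dam-NoLS is histone H2B joined to the methyltransferase and a nucleolar localization signal, and H2B-Dam, the same fusion without that signal, is its control. Both sit on 1 Rosa26 allele of male E14 cells of the 129/Ola strain, in lines grown from single-cell clones, behind a minimal hsp promoter with Tet operators that TetR-KRAB holds down, and carry a destabilization domain. To switch the fusions on, all DamID samples received doxycycline at 100 ng/ml together with Shield1 at 1 µM for a period of 15 h. NPCs came from 8 days of embryoid body culture, in which retinoic acid, at 2 µM, was present from the start of the last 4 days. They are thus a differentiated culture and not a sorted population. For DamID, the embryoid bodies were then dissociated, and single cells were reseeded on gelatin, induced for 15 h and harvested the day after. RNAseq samples came from separate culture dishes and list no doxycycline or Shield1, and the NPCs among them had the same retinoic acid.

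The members were selected on the NAD calls of both cell types and on ESC length, so lengths, scores and overlaps are given as a description and were not tested. Each NAD has 1 score for both replicates together, the H2B-Dam-NoLS signal relative to H2B-Dam as deposited, so no replicate error can be given for it. The study's methods describe a log2 ratio, but how replicates were joined is not stated, so it is used as a score without a unit and no ratio of scores is given. ESC and NPC scores were made separately, and whether their scales match was not tested. Domain borders follow the 100 kb resolution at which signal was binned. All 1769 starts and all 1769 ends in the ESC list fell on a GATC site, and 1742 starts and 1750 ends lay within 2000 bases of a multiple of 100 kb.

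Kept short NADs were 51.5% of the short ESC NADs. With an overlap of at least 50% of both the ESC and the NPC NAD required, 163 would be kept, or 21.9%. Of the ESC NADs of 200 kb or more, 787 of 961 overlapped an NPC NAD, or 81.9%. A longer domain has more bases that can overlap, and the difference was not tested. Of the 623 short NADs under 150 kb, most of them near 100 kb or a single bin, 310 were kept (49.8%). Of the other 122, 74 were kept (60.7%), and these 74 were 196.3 kb or longer, or about a pair of bins. The median member was 100.3 kb long, and its quartiles were 99.5 and 101.3 kb.

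At the upper edge of the rule stood chr8:39000064-39200059, at 199996 bases, with an ESC score of 0.0237. It covers the whole of Tusc3, a subunit of an oligosaccharyltransferase that attaches sugars to proteins, and lies within an NPC NAD of 3.60 Mb. Next came chr11:79300207-79500198, at 199992 bases and an ESC score of 0.0631, which holds most of Nf1, the gene for the Ras regulator neurofibromin. Just past the limit lay chr12:116299979-116499983, at 200005 bases with a score of 0.0433 and 50.1% of its bases in an NPC NAD. The second was chr1:165300048-165500079, at 200032 bases with a score of 0.0426 and 49.7% of its bases in an NPC NAD. Domains on both sides of the limit are thus 2-bin domains that differ by very few bases. The shortest member, chr3:107302149-107398591, had 96443 bases and holds Rbm15, which helps to place methyl marks on RNA.

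Borders of both lists lie at GATC sites, nearly all of them close to a multiple of 100 kb, so borders can coincide through the binning. Domains that end near the same multiple can still end at different sites, as with the Fam49b and Rbm6 members below. Of the members, 67 had both borders at the same base in ESCs and NPCs (17.4%) and 133 shared exactly 1 border. The GATC sites at both borders of the 4 members with the highest ESC scores are printed with their flanks, to show the sequence at which a domain begins or ends. Each is 40 bases of the plus strand of GRCm38, and the capitals mark the GATC at the border.
Trip12 member start, chr1:84699620-84699659: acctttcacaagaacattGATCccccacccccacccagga
Trip12 member end, chr1:84800682-84800721: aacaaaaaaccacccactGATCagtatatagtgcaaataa
Fam49b member start, chr15:63899876-63899915: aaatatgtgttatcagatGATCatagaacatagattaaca
Fam49b member end, chr15:64000032-64000071: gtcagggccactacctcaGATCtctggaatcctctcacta
Qk member start, chr17:10199888-10199927: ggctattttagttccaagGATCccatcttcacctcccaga
Qk member end, chr17:10300525-10300564: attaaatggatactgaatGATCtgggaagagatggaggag
Rbm6 member start, chr9:107799236-107799275: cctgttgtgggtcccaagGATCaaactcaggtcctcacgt
Rbm6 member end, chr9:107900791-107900830: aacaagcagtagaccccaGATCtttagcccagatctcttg
The start sites of all 4 also open an NPC NAD. The end site of the Qk member also closes one, while the NPC domain of the Trip12 member runs on to a later site and those of the Fam49b and Rbm6 members stop at an earlier one.

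On the overlap side, 282 of 384 members lay wholly inside an NPC NAD (73.4%). Another 65 had over 95% of their bases in one, and 28 had between 49% and 51%, all 2-bin domains of which a single bin was called in NPCs. The remaining 9 had under 2%, so they touch the edge of an NPC NAD rather than lie in it. The smallest overlap in bases was 191, at chr17:59799821-59900213, a member without a gene. The smallest share was 0.168%, or 335 bases, at chr18:37099968-37299939, which holds Pcdha genes together with Pcdhb1 and Pcdhb2 of the protocadherin clusters. Just outside the rule, 16 of the 361 short NADs that were not kept ended exactly where an NPC NAD began or the reverse, among them chr1:21800125-21900058 and chr1:67899498-67999210. A further look 2 kb out brought that number to 28, and 100 kb out to 42.

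The NPC domain that a member fell in ranged from 97.7 kb to 12.5 Mb, with a median of 299 kb. No pair of ESC NADs lay closer than 296 kb, while 77 of the 1427 gaps in the NPC list were under 290 kb, the smallest 3.16 kb, and how neighbouring calls were joined in each list is not stated. Each member overlapped 1 NPC NAD, and together they fell in 340 of the 1447 NPC NADs. Most of those held a single member, and 30 held 2 or more, with 74 members among them. The NPC domains were of 3 kinds by length. In the first, 176 members (45.8%) met an NPC NAD that was itself under 200 kb, and no other ESC NAD overlapped any of those NPC domains. In the middle kind, 113 members (29.4%) met an NPC NAD of 200 kb to 1 Mb, and 75 of these were the single ESC NAD in it. In the last kind, 95 members (24.7%) fell in 62 NPC NADs of 1 Mb or more, and 7 of these were the single ESC NAD in it.

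The kinds also differed in how members sat in their domain. Of members in NPC NADs under 200 kb, 94 were wholly inside (53.4%), against 98 in the middle class (86.7%) and 90 in the long class (94.7%). A wider NPC domain has more room for a member to lie inside, and the part of width in this order was not tested. In the long class, ESC NADs covered a median of 39.6% of the NPC domain. The longest domain, chr13:74399556-86901095, spans 12.5 Mb with a score of 0.0502 and holds 12 ESC NADs, 5 of which were members. Its first members in order were chr13:75699981-75799286 with an ESC score of 0.0543, which carries the transcription elongation factor gene Ell2, and chr13:76099910-76200172 with an ESC score of 0.0836, which carries Ttc37, a part of the RNA-degrading Ski complex.

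ESC scores of the kept short NADs had a median of 0.0336, with quartiles of 0.0231 and 0.0589 and a range of 0.00872 to 0.180. The median was 0.0241 in the short NADs that were not kept and 0.0247 in the longer ESC NADs. Members made up 37 of the 50 highest scores of the whole ESC list and 65 of the highest 100. At or above the median of the ESC list stood 245 of 384 members (63.8%), 155 of 361 short NADs not kept (42.9%) and 452 of 961 longer NADs (47.0%). The highest scores of the list thus often belonged to short domains that were also found in NPCs. Members under 150 kb scored higher than the others, with medians of 0.0368 and 0.0257. These values come from the same contrast as the rule, and none was tested.

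The score went with the kind of NPC domain. Median ESC scores were 0.0506 for members in NPC NADs under 200 kb, 0.0315 in the middle class and 0.0234 in the long class. When members were ranked by ESC score and cut in 4 groups of 96, the number in an NPC NAD under 200 kb was 21 in the lowest group, 28 in the second, 58 in the third and 69 in the highest. Among members, those with high scores thus mostly met a short NPC domain, and those with low scores mostly a wider one.

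NPC scores of the domains that members fell in had a median of 0.0483 and ran from 0.00823 to 0.233. On the scales as deposited, the NPC score was above the ESC score for 275 of 384 members (71.6%). That number was 121 of 176 in NPC NADs under 200 kb, 70 of 113 in the middle class and 84 of 95 in the long class. An NPC score describes the whole NPC domain, so for a wide domain it is mostly a value of bases outside the member. Across all 384 members, ESC and NPC scores had a Pearson r of 0.44 and a Spearman rho of 0.39. Among the 67 with the same borders, where both scores describe the same bases, r was 0.83 and rho 0.82. Among the 95 in the long class r was 0.02 and rho was -0.16. Of those 95, 36 lie on chromosome 8, described next, and the long class was not examined without it. These correlations are across regions that share the same libraries and genome, and regions are not independent replicates.

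Chromosome 8 stood apart and is given before the rest of the positions. All 43 of its short ESC NADs were kept, and NPC NADs covered 77.6% of the chromosome. On the other 18 chromosomes NPC NAD coverage ran from 16.1% to 32.4%, and the share kept ran from 34.4% on chromosome 15 to 63.0% on chromosome 4. Of the 43 chromosome 8 members, 36 fell in NPC NADs of 1 Mb or more and none in NPC NADs under 200 kb. Their median NPC domain was 3.40 Mb long, their median ESC score was 0.0228 and their median NPC score was 0.0781. Without chromosome 8, 341 of 702 short ESC NADs were kept (48.6%), and their median ESC score was 0.0370. The correlation of ESC and NPC scores without it was r 0.64 and rho 0.56.

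The 3 members with the highest NPC scores lie on chromosomes 8 and 17. The highest NPC score of all, 0.233, belonged to the 200.1 kb domain around chr8:122900063-123000024, whose ESC score was 0.0327. This member lies within Ankrd11, a chromatin regulator gene. The second of them was the Qk member on chromosome 17, with an ESC score of 0.144 and an NPC score of 0.175. The third, chr8:111199936-111298920, with Glg1 and Rfwd3, had an ESC score of 0.0352 and an NPC score of 0.145. The Rbm15 member on chromosome 3 had an ESC score of 0.0373 and the lowest NPC score of the whole NPC list, 0.00823. The member with the second lowest ESC score, 0.0102, was chr8:22400194-22499926, whose NPC score was 0.113. That member holds Mrps31, a protein of the mitochondrial ribosome, with Smim19 and part of the phosphate transporter gene Slc20a2.

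Along the chromosomes, members were spread evenly. Counted in 5 equal parts from the first base, which in the mouse is the centromere end, they numbered 74, 80, 82, 81 and 67. Short NADs that were not kept numbered 56, 63, 73, 82 and 87 over the same parts. Longer ESC NADs numbered 183, 207, 215, 207 and 149. The short NADs that were not kept thus leaned to the distal end, a description that was not tested. The distance to the nearest other ESC NAD had a median of 499.5 kb for members, 499.8 kb for short NADs not kept and 400.1 kb for longer ones.

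The 5 members with the highest ESC scores all lie over the bodies of genes. The first, chr1:84699640-84800701, scored 0.180 in ESCs, the second highest of the ESC list, and 0.0951 in an NPC NAD of 200.02 kb. Of its bases, 78.7% lie in Trip12, a ubiquitin ligase gene. Trip12 measured 6.88, 6.53 and 2.98 RPKM (reads scaled to exon length and to the total of the sample) in the ESC samples and 4.29, 3.97 and 3.95 in the NPC samples. It was thus read in all 6 samples, and the third ESC sample lay below the NPC values while the other ESC samples lay above them.

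Next, chr15:63899896-64000051 scored 0.146 in ESCs and 0.0907 in NPCs. It holds part of Fam49b, a regulator of Rac1, and of the gasdermin gene Gsdmc4. Fam49b measured 1.51, 1.501 and 1.91 RPKM in ESCs and 0.635, 0.541 and 0.569 in NPCs, so the ESC values lay above the NPC values. The third, chr17:10199908-10300544, scored 0.144 in ESCs and 0.175 in NPCs, with both borders at the same bases in the 2 lists. It is almost filled, at 97.3% of its bases, by Qk, which encodes the RNA-binding protein quaking. Qk measured 2.62, 2.51 and 1.23 RPKM in ESCs and 2.95, 2.79 and 2.81 in NPCs.

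The fourth, chr9:107799256-107900810, scored 0.141 and 0.124 and lies mostly over Rbm6, another RNA-binding protein gene, with Mon1a at its end. Rbm6 measured 1.25, 1.15 and 1.10 RPKM in ESCs and 1.31, 1.40 and 1.25 in NPCs. The fifth, chr12:16899745-17000068, scored 0.139 and 0.116 and has the same borders in both lists. Of its bases, 87.8% lie in Rock2, a kinase that acts on the cytoskeleton, and 11.4% in Pqlc3. Rock2 measured 1.504, 1.30 and 0.669 RPKM in ESCs and 1.29, 1.37 and 1.37 in NPCs. Trip12, Fam49b, Qk, Rbm6 and Rock2 were thus read in all 6 samples. At the other end, chr1:18800292-18899660 had the lowest ESC score, 0.00872, holds no gene and lies in an NPC NAD of 900.5 kb with a score of 0.0392.

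Gene bodies fill more of the kept short NADs than of the other ESC NADs. The median member had 4.17% of its bases in exons and 59.8% in introns of protein-coding genes. Short NADs not kept had medians of 2.02% and 41.4%, and longer ESC NADs 2.64% and 44.2%. Over chromosomes 1 to 19 the shares were 3.76% and 36.5%. At least 50% of the bases were in coding gene bodies in 250 of 384 members (65.1%), 185 of 361 short NADs not kept (51.2%) and 473 of 961 longer NADs (49.2%). A single gene took that much of 202 members (52.6%), against 140 of the short NADs not kept (38.8%). None of these differences was tested.

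The share in genes went with the score in members. From the lowest to the highest group of members by ESC score, 29, 49, 83 and 89 of 96 had at least 50% of their bases in coding gene bodies. Members without any coding gene numbered 53, 26, 2 and 0 in the same order. Among the short NADs not kept, the numbers with at least 50% were 19 of 91 and then 33, 56 and 77 of 90. Among longer ESC NADs they were 78 of 241 and then 72, 120 and 203 of 240. Both other groups thus also had their largest number in the highest group, though in longer NADs the second group lay below the lowest. By NPC domain, 144 of 176 members in NPC NADs under 200 kb reached 50% (81.8%), 64 of 113 in the middle class (56.6%) and 42 of 95 in the long class (44.2%).

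Base composition differed less between the groups. Median GC content was 39.95% in members, 41.4% in short NADs not kept and 39.8% in longer ESC NADs, and it was 41.9% over chromosomes 1 to 19. GATC sites, the substrate of the methyltransferase, had a median density of 2.39 per kb in members, 2.45 in short NADs not kept and 2.46 in longer ones, and chromosomes 1 to 19 had 2.495. Within the members, the highest group by ESC score had 2.28 sites per kb and the lowest 2.52. Whether site density bears on the score was not tested. Repeats and other low-complexity bases, as soft-masked in the genome sequence, took a median of 33.0% of members, 29.9% in the highest group by score and 39.7% in the lowest. Members in long NPC domains had a lower median GC content, 38.1%, than those in NPC NADs under 200 kb, at 40.7%.

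Of the genes in the RNAseq tables, 587 overlapped a member, 260 of them wholly. That is 12.8 genes per Mb, beside 12.6 in short NADs not kept, 6.72 in longer ESC NADs and 8.61 over chromosomes 1 to 19. Counting any overlap raises the density of short regions, and by transcription starts the densities were 8.54 per Mb in members, 8.84 in short NADs not kept and 6.15 in longer ones. No gene overlapped 82 members, 1 gene overlapped 156, and the largest number was 18, in the protocadherin member. Gene density also went with the NPC domain. It was 16.0 per Mb for members in NPC NADs under 200 kb, 13.0 in the middle class and 6.86 in the long class.

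Gene families were counted by symbol prefix, beside 2.85% of all genes on chromosomes 1 to 19 that overlap a member (587 of 20632). Longer ESC NADs overlap 22.5% of all genes, and short NADs not kept 2.49%. Of 1127 olfactory receptor genes (Olfr) on chromosomes 1 to 19, 17 overlapped members (1.51%), 26 short NADs not kept and 453 longer ESC NADs (40.2%). Of the 17, 8 lie in 1 member, chr7:6399298-6598562. Of 327 vomeronasal receptor genes (Vmn1r and Vmn2r), 4 overlapped members (1.22%), 8 short NADs not kept and 95 longer ones (29.1%). Both receptor families thus had a lower share in members, and a higher share in longer ESC NADs, than all genes. Of 388 Zfp genes, most of which encode zinc finger proteins, 13 overlapped members (3.35%), 11 short NADs not kept and 141 longer NADs (36.3%). Of 114 genes with the keratin prefix, 39 Hox genes and 67 histone cluster genes, none overlapped a member. Short NADs not kept held 3, 0 and 0 of them and longer ones 16, 9 and 0, so the absence of histone cluster genes is shared by all groups. These shares are a description, since genes of a cluster lie side by side, and none was tested.

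Cell adhesion genes were represented by 2 families. Of 66 protocadherin genes, 15 overlapped a member (22.7%), all in the chromosome 18 member that touches its NPC NAD by 335 bases. Clustered protocadherins are cell surface proteins that give neurons their identity codes. Of 28 cadherin genes, 5 overlapped members (17.9%), each a different member, namely Cdh7, Cdh8, Cdh9, Cdh10 and Cdh12. Longer ESC NADs, which overlap 22.5% of all genes, held 26 protocadherin (39.4%) and 6 cadherin genes (21.4%). A protocadherin share above that of all genes is thus not particular to members. The cadherin share of longer NADs was close to their share of all genes, whereas members overlap 2.85% of all genes. Counting any overlap favours long genes, and gene length was not matched in these shares. Short NADs not kept held 1 of each family, and none of these shares was tested. Cdh10, on chr15:18800003-18999676, measured 0.00165, 0.00106 and 0.000998 RPKM in ESCs and 0.128, 0.121 and 0.121 in NPCs. Cdh8, which overlaps the member chr8:99200001-99299713, was listed at 0 in all 3 ESC samples and at 0.0423, 0.0395 and 0.0409 in NPCs. Both are adhesion molecules of neurons, and both were below 1 RPKM in all 6 samples.

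Other families with roles in neurons had shares on both sides of that of all genes. Of 135 genes with ion channel prefixes, 1 overlapped a member (0.741%), the potassium channel gene Kcnj3. Of 62 neurotransmitter receptor genes, 1 did (1.61%), the nicotinic receptor subunit gene Chrna5. Of 68 axon guidance genes, 3 did (4.41%), namely Ntng1, Plxnc1 and Sema3e. Plxnc1, a semaphorin receptor, measured 0.00210, 0.00154 and 0.00190 RPKM in ESCs and 0.273, 0.260 and 0.235 in NPCs. Of 372 solute carrier genes, 11 overlapped members (2.96%). Longer ESC NADs held 23, 27, 15 and 67 genes of these 4 families in turn, and short NADs not kept 7, 3, 4 and 9. Reads of paralogs and of overlapping gene models may be shared between genes, and how such reads were counted is not stated.

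Genes of members were read at higher median levels than genes of the other ESC NADs, though below 1 RPKM. The median gene that overlaps a member measured 0.425 RPKM in ESCs and 0.653 in NPCs, averaged over the 3 samples of each. For short NADs not kept the medians were 0.207 and 0.331, for longer ESC NADs 0.0563 and 0.123, and over chromosomes 1 to 19 they were 0.102 and 0.231. RPKM is scaled within each sample and the cell types came in separate tables, so a batch effect and a difference of cell type cannot be told apart. In such bulk samples, fewer cells with a transcript and less of it per cell cannot be told apart either. Members in NPC NADs under 200 kb held genes with medians of 0.556 and 0.918 RPKM, and those in NPC NADs of 1 Mb or more genes with medians of 0.0619 and 0.129.

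One RNAseq library stood apart from its group. Over the 7757 genes that reached 1 RPKM in at least 3 of the 6 samples, ESC replicate 3 had a correlation of 0.963 and 0.966 with the other ESC samples, which had 0.999 with each other. NPC samples had 0.996 to 0.999 among themselves, and ESC with NPC samples 0.676 to 0.704. A gene under 1 RPKM in all samples of a cell type passes this filter only if it reaches 1 in all samples of the other, so its direction is fixed before the test. Counts of called genes among members are therefore given with and without ESC replicate 3.

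The labelled cell types were checked on marker genes. Of 10 ESC markers, 9 fell from ESCs to NPCs, with summed levels of 1905, 1903 and 3798 RPKM in ESCs and 16.7, 18.3 and 19.02 in NPCs. Dppa5a was the most abundant, and Tbx3 was not called. Of the 9 that fell, all but Sox2 and Klf4 were under 1 RPKM in every NPC sample. Those passed the filter through ESC values alone, so their direction was fixed. Of 10 NPC and radial glia markers 7 were tested and 4 rose, namely Pax6, Nes, Hes5 and Msi1, while Sox1, Vim and Notch1 were not called. Pax6, Hes5 and Sox1 were under 1 RPKM in every ESC sample. They passed the filter through NPC values alone, so their direction was fixed. The sums of the 10 were 43.0, 44.7 and 51.5 RPKM in ESCs and 88.4, 94.0 and 96.8 in NPCs, and Vim was the most abundant. The cultures also held transcripts of other lineages. Of 8 mesoderm and endoderm markers 5 were tested and called higher (Foxa2, Sox17, Gata4, Gata6 and Kdr), each in the filter through its NPC values alone and so of fixed direction, with sums of 1.18, 1.26 and 1.08 RPKM in ESCs and 17.7, 18.99 and 18.4 in NPCs, and Gata6 was the most abundant. T and Mesp1 were under the filter: T measured 0.964, 1.04 and 0.869 RPKM in ESCs and 0.0164, 0.00909 and 0.0115 in NPCs, and the mean of Mesp1 was 0.0343 in ESCs and 0.0284 in NPCs. Of 5 fibroblast markers 3 were tested and called higher, again through NPC values alone, with sums of 0.0671, 0.0778 and 0.0451 RPKM in ESCs and 43.6, 49.3 and 49.1 in NPCs, and Col1a1 was the most abundant.

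Of 6 early neuron markers 3 were tested and 1, Stmn2, fell, while Tubb3 and Neurod1 (0.69) were not called. Stmn2 passed the filter through ESC values alone and Neurod1 through NPC values alone, so the direction of both was fixed. Under the filter were Dcx, listed at 0 in ESCs and at 1.05, 0.821 and 0.874 RPKM in NPCs, and Elavl3 and Map2, which were also above their ESC values in each NPC sample. The sums of the 6, carried by Tubb3 and Stmn2, were 11.5, 12.6 and 14.9 RPKM in ESCs and 7.93, 6.78 and 8.12 in NPCs, with Tubb3 the most abundant. No marker of these lists was at 0 in all 6 samples. Among them, Dcn overlaps a member and was under the filter. Differences between cell types in the genes of members move with these lists, and the part of other lineages in them was not tested.

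Of the 587 genes, 253 reached the filter and were tested, 331 were under it, 40 of which were listed at 0 in all 6 samples, and 3 symbols stand on several lines and were left out. With limma across all 7757 genes, a gene was called at an adjusted p under 0.05 and a difference of at least 1 on the log2(RPKM + 1) scale. Of the 253, 31 were called higher in NPCs (12.3%) and 15 lower (5.93%), beside 16.7% higher and 12.0% lower among all tested genes. The median difference was 0.12 for the 253 and 0.03 for all tested genes, but 0.00865 and 7.45e-05 without ESC replicate 3, so the 0.12 rests on that library. Both shares lie under those of all tested genes, and nothing about the members is read from them. Adding 1 RPKM damps the differences of genes at low levels, so the calls lean to genes with higher RPKM.

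The split of the calls moved with scaling. Higher calls were 67.4% of all calls among the 253 and 58.1% among all tested genes. When each sample was centred on its median, which moves the median of all genes by -0.12, 21 of the 253 were called higher and 20 lower, so that 51.2% of calls were higher, and 48.8% among all genes. Of the 46 called genes, 36 were still called after centring. Without ESC replicate 3, 29 of the 253 were called higher (11.5%) and 16 lower (6.32%), beside 15.6% and 10.5% of all tested genes, and 40 of the 46 were called again. In none of the 46 did the ESC and NPC values overlap, which the call rule itself makes likely. Overlap and repeated calls were not counted for all called genes, so nothing about the members is read from them. Short NADs not kept had 24 higher and 10 lower of 177 tested genes (21 and 10 without ESC replicate 3), and longer ESC NADs 171 and 104 of 1330 (151 and 92).

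With 1 RPKM added before the log, the largest rise of a member gene was that of Ccng2, though with 0.1 added Gdf11 rose more (3.98 against 3.06). Ccng2, which encodes the cyclin G2 linked to cell cycle arrest, measured 1.51, 1.34 and 1.07 RPKM in ESCs and 12.5, 10.4 and 11.9 in NPCs, a difference of 2.45 on the log2 scale (SE 0.11, adjusted p = 2.73e-06). Its NPC values were all several times its ESC values. The gene lies wholly in chr5:93199980-93399900, which overlaps an NPC NAD of 99.1 kb. Gdf11, a secreted factor of the TGF-beta family that restrains neuron production, measured 0.199, 0.173 and 0.0931 RPKM in ESCs and 4.01, 3.62 and 3.94 in NPCs, a difference of 2.07 (SE 0.06, adjusted p = 4.97e-07). Tgfbr1, a receptor of the same family, measured 0.731, 0.688 and 0.327 in ESCs and 3.47, 3.20 and 3.18 in NPCs, a difference of 1.45 (SE 0.11, adjusted p = 4.12e-05). Both were under 1 RPKM in every ESC sample, as were Fam208b and Fbxl20 below, so all 4 passed the filter through NPC samples alone. The Tgfbr1 member, chr4:47300212-47401322, has the same borders in both lists, with an ESC score of 0.0502 and an NPC score of 0.0886.

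Atxn1l, a partner of the transcriptional repressor Capicua, measured 2.00, 2.23 and 0.751 RPKM in ESCs and 11.3, 10.8 and 10.9 in NPCs, a difference of 2.23 (SE 0.23, adjusted p = 0.000183). ESC replicate 3 was the lowest, and without it the difference was 1.95. Its member on chromosome 8 scored 0.0429 in ESCs and lies in an NPC NAD of 500.5 kb with a score of 0.131, so the transcript rose within a domain called in both cell types. Klhdc2 rose by 1.86, Ttc3 by 1.69, Fam208b by 1.62, Fam162a by 1.58, Wdr26 by 1.47 and Fbxl20 by 1.46 on the log2 scale. The same-border member chr13:3499806-3600762 holds most of Fam208b, and the same-border member chr16:36000701-36100097 all of Fam162a.

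Among the member genes that fell, Jade1, a subunit of a histone acetyltransferase complex, measured 9.50, 9.28 and 5.68 RPKM in ESCs and 0.622, 0.581 and 0.606 in NPCs, and fell by 2.48 on the log2 scale (SE 0.18, adjusted p = 2.94e-05). Only 27.7% of the Jade1 gene lies in its member. Nqo1, a quinone reductase of the oxidative stress response, measured 7.00, 7.04 and 7.52 RPKM in ESCs and 0.622, 0.644 and 0.533 in NPCs, and fell by 2.36 (SE 0.07, adjusted p = 4.58e-07). Eif2s2, a subunit of the translation initiation factor that brings the first tRNA, measured 42.4, 39.5 and 56.2 RPKM in ESCs and 7.99, 8.50 and 8.63 in NPCs, and fell by 2.31 (SE 0.15, adjusted p = 1.63e-05). Jade1 and Nqo1, like Trim13 and Chmp4c below, were under 1 RPKM in every NPC sample and passed the filter through ESC samples alone, while Eif2s2 was well above 1 RPKM in both. Its member, chr2:154800071-154899688, scored 0.0648 in ESCs and lies in an NPC NAD of 702.3 kb.

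Further falls among the named genes were of different kinds. Hells, a chromatin remodeller needed for DNA methylation, measured 11.7, 10.5 and 6.25 RPKM in ESCs and 3.32, 3.71 and 3.57 in NPCs, and fell by 1.17 (SE 0.21, adjusted p = 0.00273). Gnl3, which encodes the nucleolar protein nucleostemin, measured 50.1, 46.0 and 50.9 RPKM in ESCs and 20.9, 22.8 and 23.0 in NPCs, and fell by 1.10 (SE 0.10, adjusted p = 0.000102). Gnl3 lies wholly in chr14:30999980-31100299, whose ESC score of 0.131 is among the highest. The protein methyltransferase gene Setd6 fell by 1.68 in an NPC NAD of 8401 kb on chromosome 8. Trim13 fell by 2.11, Chmp4c by 1.44, Pigp by 1.42, Msto1 by 1.30 and Ormdl2 by 1.18 on the log2 scale. Only 19.6% of Trim13 and 46.5% of Chmp4c lie in their members. In Pigp, a gene of the pathway that makes membrane anchors, ESC replicate 3 stood at 16.2 RPKM and the other ESC samples at 6.87 and 5.78, and without it the gene fell by 1.01.

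Genes within 1 member could move in opposite directions, and 5 members, noticed after the values were seen, held both a called rise and a called fall. How often other ESC NADs hold both was not counted, so nothing about the members is read from this number. In chr16:94300378-94499964, Ttc3 rose and its neighbour Pigp fell. In chr10:128799935-128899824, Gdf11 rose and Ormdl2, a regulator of sphingolipid synthesis, fell. In chr12:69299965-69399056, Klhdc2 rose and Arf6 fell, though without ESC replicate 3 Arf6 was at -0.96 and no longer called. In chr8:107298971-107399648, Nfat5, a transcription factor of the osmotic stress response, rose by 1.32 and Nqo1 fell. In chr14:30999980-31100299, Glt8d1 rose by 1.28 and Gnl3 fell. As given above, Gdf11 passed the filter through NPC samples alone and Nqo1 through ESC samples alone, so the direction of both was fixed. Genes were placed by any overlap, and not all lie wholly in their member. Of Nqo1, 76.3% lies in its member, and of Klhdc2 76.6%, with the transcription start of each outside.

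By mean RPKM the highest tested member genes were Rps13, Hspa5, Arf6, Gnl3, given above, and Spcs1. Rps13, a protein of the small ribosomal subunit, measured 207.3, 214.7 and 468.0 RPKM in ESCs and 136.8, 147.5 and 154.5 in NPCs. Its difference of -0.91 was not called, and ESC replicate 3 stood well above the other ESC samples. It was called at -1.11 without ESC replicate 1, at -1.09 without ESC replicate 2 and at -1.03 after centring, while without ESC replicate 3 it was at -0.53 and not called. Hspa5, the main chaperone of the endoplasmic reticulum, measured 94.8, 91.1 and 106.0 RPKM in ESCs and 97.8, 101.9 and 94.5 in NPCs, so the groups overlapped. Arf6, a small GTPase of membrane traffic, measured 59.2, 70.2 and 74.9 RPKM in ESCs and 32.4, 32.1 and 33.4 in NPCs. It fell by 1.03 (SE 0.12, adjusted p = 0.000380), and fell by 0.96 without ESC replicate 3, where it was no longer called. Spcs1, a subunit of the signal peptidase, measured 31.5, 31.2 and 53.0 RPKM in ESCs and 29.0, 28.8 and 27.6 in NPCs and was not called. These genes were thus read at high levels in regions called as NADs in both cell types. Each takes a small part of its member, from 1.35% for Rps13 to 6.70% for Gnl3, below the 100 kb resolution of the calls. Of the 253 tested genes, 17 had at least 10 RPKM in both cell types. That number was not counted over all tested genes, so nothing about the members is read from it.

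Calls by NPC domain are given beside the 16.7% higher and 12.0% lower among all tested genes. Of genes of members in NPC NADs under 200 kb, 158 were tested, 18 were called higher (11.4%) and 3 lower (1.90%), and 18 and 5 without ESC replicate 3. In the middle class 71 were tested, with 12 higher (16.9%) and 9 lower (12.7%), and 10 and 7 without it. Tested genes thus lay mostly in members whose NPC domain was also short, as did 333 of all 587 member genes. In the long class 24 were tested, with 1 higher (4.17%) and 3 lower (12.5%), and 1 and 4 without that replicate. Several of these shares are close to those of all genes, the numbers are small, and whether the classes differ was not tested.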

How the data were processed

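NADs of ESCs and NPCs were used with the score per NAD as deposited. The authors made this score from H2B-Dam-NoLS relative to H2B-Dam at 100 kb resolution on mm10 (the submitters' processing notes name Bowtie2 2.3.4.3 and deepTools 3.2.1) and kept peaks common to both replicates. RNAseq values were used as RPKM, which the authors made per sample, with annotation, use of strand in counting and multi-mapping not stated. The study's methods name a stranded library kit and STAR, whereas the labels name another kit with Bowtie2 and Subread. No column of per-sample values was left unmapped (0). Reads per sample are not given, and the study states only a range for all its RNAseq libraries; from the smallest steps of the RPKM values, samples held an estimated 80.1% to 99.0% of the reads of ESC replicate 1, which is uncertain, since 5.15% to 11.5% of low genes lay on that ratio. Starts were raised by 1 base. Lists were joined by overlap, genes placed by GENCODE or, for 140 symbols, RefSeq positions, and sequence read from GRCm38 (Python 3.11.15, numpy 2.4.6, pandas 2.3.3, scipy 1.17.1, pysam 0.24.0).

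Genes with at least 1 RPKM in at least 3 of 6 samples were fitted with limma 3.58.1 (lmFit, eBayes with trend; R 4.3.3) on log2(RPKM + 1), with Benjamini-Hochberg adjustment over all 7757 genes; code was checked on simulated data. Members and gene lists were chosen with earlier results of these data known. Named members were the longest and shortest, the 5 highest and 2 lowest ESC scores, the 3 highest NPC scores, 2 in the longest NPC NAD, the 2 smallest shares, and 2 on each side of the length limit. Named genes were the 10 largest rises and 10 largest falls among called member genes, the 5 highest means and the genes of named members; families were counted by symbol prefix, and the cadherin, Plxnc1 and Olfr examples were picked after their values were seen. Alternatives changed the overlap, length limit, chromosomes, score, gene assignment, pseudocount, filter, call rule, centring, duplicate symbols, replicate block and samples. ChIPseq samples were left out because they are of ESCs alone.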

Additional observations from a re-analysis of the deposited data

How the results depend on the processing

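The count of 384 kept short NADs held within 1.5-fold with 50% of the ESC NAD required, with limits of 150 or 300 kb, with the X chromosome and without chromosome 8. With 50% of both NADs required, it was 163 (21.9% of the short NADs), with 97 wholly inside and 298 genes. With NADs at or above the median score of their list it was 169 (42.2%), with 110 inside and 317 genes. A limit of 300 kb gave a share of 55.8% and 966 genes. Transcription starts inside a member numbered 391, and all annotation genes 1155. The cause of these shifts was not tested, except that each alternative changes which regions or genes are counted.

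Among member genes, a pseudocount of 0.1 gave 57 higher (22.5%) and 26 lower (10.3%), against 1897 (24.5%) and 1285 (16.6%) of all tested genes, and the adjusted p alone 90 and 60 (2872 and 2571 of all tested genes). Leaving out 1 sample gave 29 to 33 higher and 14 to 17 lower, and 1213 to 1350 and 812 to 1049 of all genes. Genes with their transcription start inside a member gave 22 higher and 12 lower, and how many of them were tested is not given. Of the 46 called member genes, 36 were called again after centring and 40 without ESC replicate 3, whereas smaller pseudocounts and looser filters could hardly remove a call. How many of all called genes were called again was not counted. Genes near no difference changed sign. Hspa5 was at -0.11 after centring, -0.00368 without ESC replicate 1, -0.032 without ESC replicate 2 and -0.014 without NPC replicate 2, and up to 0.076 with another sample left out. Rock2 was at -0.033 and Rbm15 at -0.14 without ESC replicate 3, and reached 0.26 and 0.20 with another left out. After centring Rbm15 was at -0.050 and Rbm6 at -0.018. None of them was called.

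ESC and NPC replicates share only a number. Residuals of same-number pairs had correlations of 0.11, -0.08 and 0.03, and with replicate number as a term 31 member genes were higher and 15 lower, and 1293 and 934 of all genes.

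NAD scores are not given per replicate, so no error can be given for a domain, and 100 kb bins set the precision of lengths and borders. Reads of each sample are not given, only a range for the study's RNAseq libraries, so no counting interval is given for an RPKM value, and values near 0 cannot be told from 0. With 3 samples a group, a gene that was not called is not shown to be equal.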
